A study of Mus musculus with 6 samples.

Results

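The genes of the pyruvate dehydrogenase complex, its kinases and its phosphatases were followed in the epididymal fat of mice on 2 diets. The 10 genes were chosen by name: *Pdha1*, *Pdhb*, *Dlat* and *Pdhx* for the core of the complex, *Pdk1*, *Pdk2*, *Pdk3* and *Pdk4* for the kinases, and *Pdp1* and *Pdp2* for the catalytic subunits of the phosphatases. Each symbol matched 1 of the 54532 Ensembl identifiers in the count table. RNA-Seq had been done on whole epididymal fat of untreated male C57BL/6J mice, with 3 samples from mice on a normal diet (ND, 4.5% fat) and 3 from mice on a high-fat diet (HFD, 60% fat, 20% carbohydrate and 20% protein). Feeding started when the mice were 4 weeks old and lasted 16 weeks, and diet is the difference the labels give between the groups. The labels do not say whether each sample came from 1 mouse, so p-values measure the spread between these samples. The libraries held between 16996896 and 18859320 counts, and all 10 genes passed the filter on low counts together with 15751 genes in all.

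The pyruvate dehydrogenase complex sits in the mitochondrial matrix and turns pyruvate, the end product of glycolysis, into acetyl-CoA. Its E1 enzyme is built from an alpha subunit (*Pdha1*) and a beta subunit (*Pdhb*), its E2 core is *Dlat*, and *Pdhx* ties the E3 enzyme (*Dld*) to that core. The kinases phosphorylate the E1 alpha subunit and switch the complex off, and the phosphatases remove the phosphate and switch it on again. In adipocytes the complex feeds the citrate that leaves mitochondria for fatty acid synthesis, and *Pdk4* is known as the kinase gene that fasting, fatty acids and glucocorticoids induce.

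Sequence before the start sites is shown for the pair of genes with the largest fall, for *Pdk4*, which moved the other way, and for *Pdk2*, the most abundant kinase transcript on ND. RefSeq promoter sequence (build GRCm38.p6) was found for 9 of the 10 genes, with *Pdp1* the exception. Each line below gives the 250 bases before the RefSeq start site, 5′ to 3′ on the strand of the gene. Capitals mark matches on either strand to CCAAT (the CCAAT box, ATTGG on the other strand), GGGCGG (the GC box) or ACGTG (the hypoxia response core).

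*Pdha1*, chrX:160138431-160138680, minus strand: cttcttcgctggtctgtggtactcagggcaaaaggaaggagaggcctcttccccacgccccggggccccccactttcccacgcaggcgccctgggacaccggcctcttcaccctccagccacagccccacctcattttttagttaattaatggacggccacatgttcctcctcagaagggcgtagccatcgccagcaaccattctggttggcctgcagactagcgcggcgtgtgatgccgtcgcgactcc
*Pdhb*, chr14:8172993-8173242, minus strand: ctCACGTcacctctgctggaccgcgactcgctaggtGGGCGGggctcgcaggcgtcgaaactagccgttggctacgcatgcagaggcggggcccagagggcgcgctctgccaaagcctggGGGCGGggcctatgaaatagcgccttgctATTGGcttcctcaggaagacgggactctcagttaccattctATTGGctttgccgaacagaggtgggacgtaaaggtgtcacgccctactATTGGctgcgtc
*Pdk4*, chr6:5496279-5496528, minus strand: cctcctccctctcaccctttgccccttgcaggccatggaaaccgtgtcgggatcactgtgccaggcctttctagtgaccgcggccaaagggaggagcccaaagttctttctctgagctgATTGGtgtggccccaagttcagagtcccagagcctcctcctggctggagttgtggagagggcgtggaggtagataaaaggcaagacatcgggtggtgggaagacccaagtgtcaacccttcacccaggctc
*Pdk2*, chr11:95041372-95041621, minus strand: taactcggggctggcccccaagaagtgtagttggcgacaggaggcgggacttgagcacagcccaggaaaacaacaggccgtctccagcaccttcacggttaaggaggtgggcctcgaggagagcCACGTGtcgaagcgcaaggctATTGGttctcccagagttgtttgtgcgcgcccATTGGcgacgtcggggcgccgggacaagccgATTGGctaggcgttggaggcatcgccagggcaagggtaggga

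*Pdhb* and *Pdk2* each held 3 CCAAT boxes, all on the strand opposite to the gene. In *Pdhb* they began 101, 60 and 12 bases before the start site, and in *Pdk2* they began 105, 73 and 42 bases before it. *Pdk4* held 1, at 131 bases, and *Pdha1* held no match to any motif searched. Of 32851 RefSeq promoter windows of the same length, 33.9% held a CCAAT box, 32.7% a GC box and 16.6% the hypoxia response core. The nuclear receptor half-site AGGTCA (14.0% of all windows), the FOXO core GTAAACA (3.17%), TATAAA (12.4%), the NRF1 palindrome (3.74%) and CCGGAAG (an ETS core, 6.91%) were not found in the windows of the 9 genes, which says only that these letters were not there. The window of *Pdk4* was the poorest in CpG among the first listed windows of the 9 genes, with an observed over expected ratio of 0.278 and 6 CpG. *Pdha1* had a ratio of 0.654, *Pdhb* 0.849 and *Pdk2* 0.807, and the median over all windows was 0.374. GENCODE places the starts of *Pdhb* and *Pdk4* somewhat farther upstream, inside these windows. A second listed start of *Pdk1* had a ratio of 0.223.

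Most of the core subunit genes were lower on HFD, and 1 kinase gene was higher. Of the 10 genes, 3 were called lower (*Pdha1*, *Pdhb* and *Pdhx*) and 1 was called higher (*Pdk4*) in edgeR's quasi-likelihood test at an adjusted p under 0.05, while 6 were not called. Over all 15751 genes tested, 6.04% were called lower and 9.85% were called higher. The log2 fold change was negative for 8 of the 10 genes, and their median was -0.78 against a median of 0.01 over all genes tested. In CPM (counts scaled to library size with TMM factors), 6 of the 10 had every HFD library below every ND library and 1 had every HFD library above, where 19.1% and 21.7% of all genes did so. In whole tissue, fewer cells of a type and less RNA per cell cannot be told apart.

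**Figure D1:**
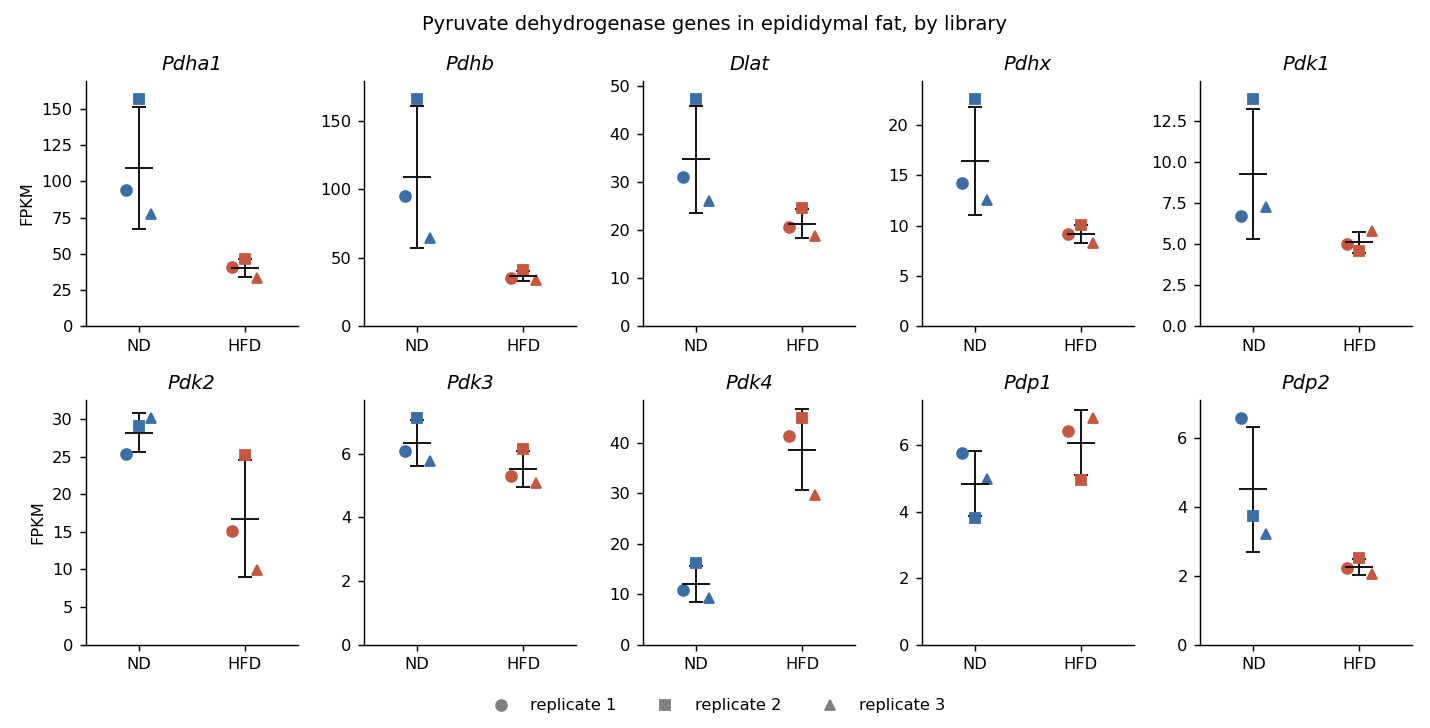
FPKM (fragments per kilobase of transcript, scaled to library size) of the 10 genes in each of the 6 libraries, with ND in blue and HFD in red. Horizontal lines are means and bars are the SD of 3 samples, and every y axis starts at 0. The 3 HFD libraries lay below the 3 ND libraries for the 4 subunits at the top left, and for *Pdk1*, *Pdp2* and, by a small margin, *Pdk2*. They lay above the ND libraries for *Pdk4*.

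*Pdha1*, which codes for the E1 alpha subunit that the kinases phosphorylate, had the highest mean FPKM of the 10 genes on both diets. Its FPKM was 93.8, 157 and 77.3 in ND1, ND2 and ND3, and 41.0, 46.1 and 33.4 in HFD1, HFD2 and HFD3. The groups did not overlap, and ND2 stood well above the other ND libraries. The fold change was 2.69-fold lower on HFD, a log2 fold change of -1.43 ± 0.28 (SE, n = 3 per diet), with an adjusted p of 0.0192 from edgeR. The call was lost without ND1 (-1.53, adjusted p = 0.0576) and without HFD1 (-1.47, 0.0824). The gene lies on the minus strand of chrX:160122209-160138413 (GRCm38), where *Map3k15* overlaps it on the other strand. *Map3k15* had between 31 and 76 counts per library against at least 2164 for *Pdha1*.

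*Pdhb*, the E1 beta subunit, followed *Pdha1* closely. Its FPKM was 95.5, 166 and 64.7 on ND and 35.3, 41.1 and 34.0 on HFD, again with no overlap and with ND2 highest. It was 2.92-fold lower on HFD (log2 fold change -1.54 ± 0.33, edgeR adjusted p = 0.0238). Without ND1 the adjusted p was 0.0682 at -1.63, without HFD1 it was 0.0960 at -1.54, and without HFD3 it was 0.0591 at -1.51. The processed pseudogene *Gm6123* shares 443 of the 4085 distinct 50-base windows of the *Pdhb* transcripts, and it had between 2 and 18 counts per library. The ratio of *Pdha1* to *Pdhb* FPKM lay between 0.945 and 1.19 on ND and between 0.983 and 1.16 on HFD, so the transcripts of both E1 subunits were present at like levels per length in every library.

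*Dlat*, the E2 subunit that carries the lipoyl arms, had FPKM values of 30.9, 47.2 and 25.9 on ND and 20.6, 24.5 and 18.7 on HFD. The groups did not overlap, and ND3 lay just above HFD2. The log2 fold change was -0.69 ± 0.23 and the adjusted p was 0.0854, so it was not called by edgeR. *Pdhx*, the E3-binding protein, had FPKM values of 14.2, 22.6 and 12.5 on ND and 9.17, 10.1 and 8.22 on HFD, with no overlap. It was called lower (-0.83 ± 0.22, adjusted p = 0.0472), close to the threshold. Leaving out any library but HFD2 ended the call of *Pdhx*, with adjusted p between 0.0503 (without ND3, at -1.01) and 0.136 (without HFD1, at -0.86), and with -0.93 without ND1 (0.0920), -0.54 without ND2 (0.0809) and -0.78 without HFD3 (0.101).

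The proportion of E1 to E2 transcript was lower in every HFD library. The ratio of *Pdha1* to *Dlat* FPKM was 3.03, 3.33 and 2.98 on ND and 1.99, 1.88 and 1.78 on HFD. The ratio of *Dlat* to *Pdhx* was 2.18, 2.09 and 2.07 on ND and 2.25, 2.44 and 2.28 on HFD. Both ratios separated the diets, the first downwards and the second upwards. These ratios were chosen after the values were seen, so they are given as a description with no test.

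Among the kinases, *Pdk4* rose and none of the others was called. *Pdk4* had FPKM values of 10.8, 16.1 and 9.31 on ND and 41.3, 45.0 and 29.6 on HFD. Its lowest HFD library lay well above its highest ND library. It was 3.23-fold higher on HFD, with a log2 fold change of 1.69 ± 0.25 and an edgeR adjusted p of 0.00938, the smallest of the 10 genes. Without ND1 the log2 fold change was 1.61 and the adjusted p was 0.0503, and without each of the other 5 libraries the gene was called.

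*Pdk2*, the kinase with the widest tissue distribution, had FPKM values of 25.3, 29.1 and 30.2 on ND and 15.1, 25.2 and 9.91 on HFD. HFD2 was just under ND1 in FPKM and just over it in CPM (79.3 against 78.7), and HFD3 was lowest. The groups therefore overlapped in CPM, and the log2 fold change was -0.74 ± 0.31 with an adjusted p of 0.142. Without HFD2 it was -1.15 with an adjusted p of 0.00888. *Pdk1*, known as a target of the hypoxia factor HIF-1, had FPKM values of 6.68, 13.8 and 7.27 on ND and 4.97, 4.56 and 5.81 on HFD. Its groups did not overlap, ND2 was high, and it was not called (-0.84 ± 0.28, adjusted p = 0.0835). *Pdk3* had the narrowest range of the kinases, with FPKM between 5.76 and 7.14 on ND and between 5.09 and 6.15 on HFD, and its groups overlapped (-0.18 ± 0.15, adjusted p = 0.433).

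**Figure D2:**
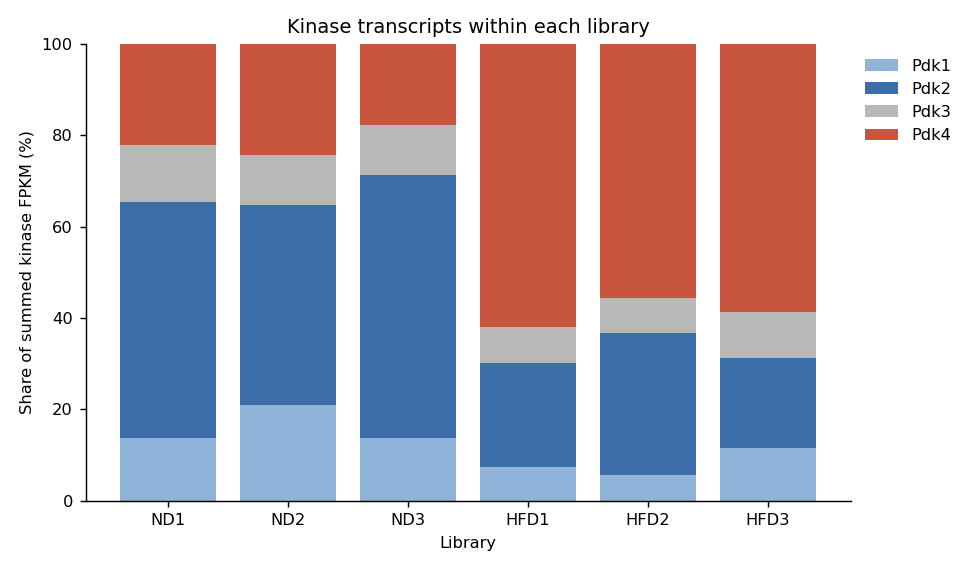
Share of each kinase transcript in the summed FPKM of the 4 kinases (y axis, %), for each library (x axis). *Pdk2* was the largest share in the 3 ND libraries, from 44.0% to 57.5%, and *Pdk4* was the largest in the 3 HFD libraries, from 55.6% to 61.9%.

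The shares of the kinase transcripts separated the diets, whereas their sum did not. *Pdk4* made up 22.1%, 24.4% and 17.7% of the summed kinase FPKM on ND and 61.9%, 55.6% and 58.8% on HFD. *Pdk2* made up 51.8%, 44.0% and 57.5% on ND and 22.7%, 31.1% and 19.6% on HFD. The sum itself was 55.9 ± 9.13 FPKM on ND and 66.0 ± 15.3 FPKM on HFD (SD, n = 3 each), and its groups overlapped. Without *Pdk4* the sum was 43.8 ± 6.01 on ND and 27.4 ± 7.74 on HFD, with every HFD library below every ND library. These shares are a description of the same values and were not tested.

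Neither phosphatase gene was called. *Pdp1*, the calcium-stimulated phosphatase, had FPKM values of 5.75, 3.79 and 4.99 on ND and 6.41, 4.96 and 6.82 on HFD, which overlapped (0.34 ± 0.19, adjusted p = 0.267). *Pdp2*, the other catalytic subunit, had FPKM values of 6.59, 3.73 and 3.20 on ND and 2.22, 2.50 and 2.05 on HFD. The groups of *Pdp2* did not overlap, and ND1 alone stood high. Its log2 fold change was -0.98 ± 0.27 with an adjusted p of 0.0523, just over the threshold, and it was -0.61 without ND1. *Pdp1* made up between 46.6% and 60.9% of the summed phosphatase FPKM on ND and between 66.5% and 76.9% on HFD, while that sum was 9.35 ± 2.61 on ND and 8.32 ± 0.755 on HFD.

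**Figure D3:**
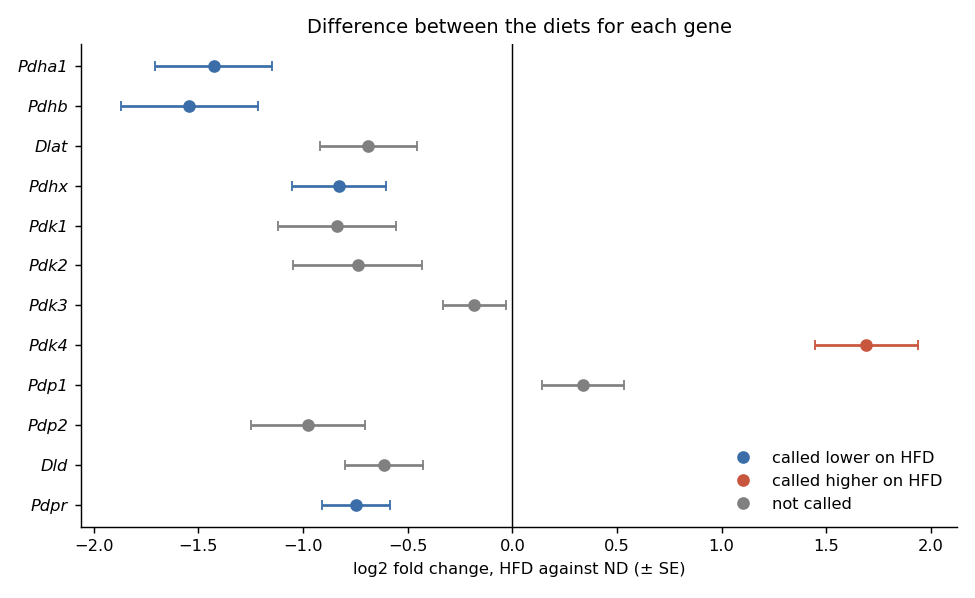
Log2 fold change of HFD against ND (x axis) for the 10 genes and for *Dld* and *Pdpr*, with bars of 1 SE from edgeR. Blue points were called lower, the red point was called higher and grey points were not called at an adjusted p under 0.05. *Pdha1* and *Pdhb* lay farthest to the left, at -1.43 and -1.54, and *Pdk4* lay at 1.69.

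By level per length, the order of the genes differed between the diets. On ND the mean FPKM ran from *Pdha1* (109 ± 42.0, SD) and *Pdhb* (109 ± 52.0) through *Dlat* (34.7 ± 11.1), *Pdk2* (28.2 ± 2.55), *Pdhx* (16.4 ± 5.37), *Pdk4* (12.1 ± 3.59), *Pdk1* (9.26 ± 3.97), *Pdk3* (6.33 ± 0.718) and *Pdp1* (4.84 ± 0.985) to *Pdp2* (4.51 ± 1.82). The ranges of neighbours in this order overlapped except between *Pdhb* and *Dlat*, *Pdk2* and *Pdhx*, and *Pdk3* and *Pdp1*. On HFD *Pdk4* (38.7 ± 8.04) stood between *Pdha1* (40.2 ± 6.35) and *Pdhb* (36.8 ± 3.77), with overlapping ranges. *Dlat* (21.3 ± 2.95), *Pdk2* (16.7 ± 7.77), *Pdhx* (9.15 ± 0.913), *Pdp1* (6.06 ± 0.980), *Pdk3* (5.52 ± 0.556), *Pdk1* (5.11 ± 0.635) and *Pdp2* (2.26 ± 0.229) followed. There the ranges of neighbours did not overlap between *Pdhb* and *Dlat*, *Pdhx* and *Pdp1*, and *Pdk1* and *Pdp2*.

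The ratio of *Pdk4* to *Pdha1* FPKM separated the diets with little spread within them. It was 0.115, 0.103 and 0.120 on ND and 1.01, 0.977 and 0.886 on HFD, so that a library on HFD held about as much *Pdk4* as *Pdha1* transcript per length. Each of these genes separated the diets by itself, in opposite directions, so their ratio had to separate them too. The ratio is given as a description and was not tested. Within each diet replicate 2 had the highest and replicate 3 the lowest FPKM of *Pdha1*, *Pdhb*, *Dlat*, *Pdhx*, *Pdk3* and *Pdk4*. *Pdp1* was lowest in replicate 2 on both diets. Libraries that share a number are not the same mice, and the labels do not say whether they share anything else. Why the order recurred was not tested.

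Cell type markers differed between and within the diets, and their part in the results above was not tested. Of 12 macrophage markers, 9 were called higher on HFD and none lower, and their summed CPM was between 1772 and 1869 on ND and between 3912 and 8727 on HFD. Of 12 adipocyte markers, 3 were called lower (*Cfd*, *Retn* and *Slc2a4*) and none higher, and their summed CPM was between 38133 and 49424 on ND and between 18645 and 35940 on HFD. *Cfd* alone held 11768 to 15636 CPM of that sum on ND and 162 to 2504 CPM on HFD. The groups did not overlap for 5 of the 12, among them *Cd36*, which was higher in every HFD library. They overlapped for *Adipoq*, *Cidec*, *Lipe* and *Fabp4*. In both diets replicate 2 had the highest and replicate 3 the lowest adipocyte sum, the order of the subunits and of *Pdk4*. HFD3 had the lowest *Pdk4* and the highest macrophage sum, and HFD2 had the highest *Pdk4* and the lowest macrophage sum of the HFD libraries.

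Beside *Plin1*, which codes for a coat protein of adipocyte lipid droplets, the 2 ends of the set differed. The ratio of *Pdk4* to *Plin1* FPKM was 0.0249, 0.0357 and 0.0280 on ND and 0.186, 0.134 and 0.213 on HFD, with no overlap. *Pdk4* separated the diets upwards by itself and *Plin1* had a negative log2 fold change, so their ratio had to separate the diets too. The ratio of *Pdha1* to *Plin1* was 0.216, 0.347 and 0.232 on ND and 0.184, 0.137 and 0.240 on HFD, which overlapped. The ratios of *Pdhb* to *Plin1* also overlapped, at 0.195 to 0.367 on ND and 0.123 to 0.244 on HFD, as did those of *Dlat* and *Pdhx*. *Plin1* itself was not called (-0.79 ± 0.33, adjusted p = 0.142). These ratios were chosen after the values were seen.

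**Figure D4:**
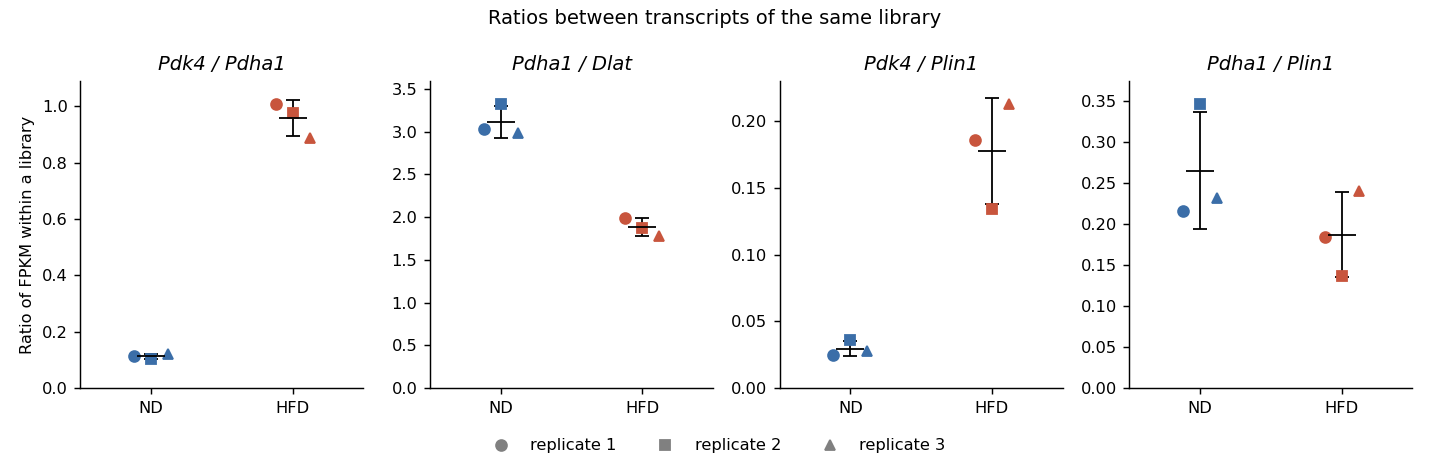
Ratios of FPKM within a library (y axes, from 0), with ND in blue, HFD in red, means as horizontal lines and the SD of 3 samples as bars. *Pdk4* over *Pdha1* and *Pdk4* over *Plin1* were higher in every HFD library, *Pdha1* over *Dlat* was lower in every HFD library, and *Pdha1* over *Plin1* overlapped.

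Other tissues were present to different degrees. The epithelial markers summed to 248 CPM in ND3 and to between 16.5 and 22.8 CPM in the other 5 libraries, and *Epcam* was listed at 0 in HFD2 and HFD3. Without ND3 the log2 fold change was -1.65 for *Pdha1* (adjusted p = 0.0356), -1.84 for *Pdhb* (0.0333), and 1.51 for *Pdk4* (0.0393). ND2 stood apart by *Acly*, the enzyme that makes cytosolic acetyl-CoA from citrate, with 604 FPKM against 73.9 to 97.4 in the other ND libraries. Without ND2 the values were -1.08 for *Pdha1* (0.0460), -1.11 for *Pdhb* (0.0482) and 1.95 for *Pdk4* (0.0286). Skeletal muscle is a tissue rich in *Pdk4*, and its part in these values was not tested. Of its markers, *Ckm* and *Myh4* were at 0 counts in every library. The summed muscle markers were between 29.5 and 71.0 CPM on ND and between 7.87 and 11.3 CPM on HFD. On ND most of that sum was *Acta1* (22.1 to 65.4 CPM), which was called lower. The germ cell gene *Pdha2* also had 0 counts throughout, although testis and sperm markers summed to between 0.108 and 5.86 CPM.

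The remaining marker lists had no gene called. Their summed CPM on ND and on HFD was 12.9 to 20.9 and 13.5 to 24.6 for lymphocytes, 1245 to 1498 and 691 to 1429 for endothelium, and 4642 to 5392 and 3251 to 6444 for fibroblasts and progenitors. Mesothelial markers summed to 203 to 296 CPM on ND and 141 to 251 CPM on HFD, and brown adipocyte markers to 5.30 to 10.5 and 10.1 to 11.1 CPM.

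Among the other genes of the complex and those for its cofactor, some were called lower, none higher and most were not called. *Pdpr*, the regulatory subunit of the *Pdp1* phosphatase, was called lower (-0.75 ± 0.16, edgeR adjusted p = 0.0248). Its FPKM was 10.2, 11.6 and 8.78 on ND against 5.81, 7.12 and 5.07 on HFD. *Dld*, the E3 enzyme named here although it was not called, had FPKM between 61.6 and 90.7 on ND and between 42.2 and 55.6 on HFD, a log2 fold change of -0.61 ± 0.19 (adjusted p = 0.0634). Of 11 genes for lipoic acid, the cofactor that E2 carries, 3 were called lower, none higher and 8 were not called. The list median was -0.27. The 3 called lower were *Mcat* (-0.90), the lipoyl synthase *Lias* (-0.56) and the iron-sulfur assembly gene *Isca1* (-0.59). *Mcat* loads malonyl groups in mitochondrial fatty acid synthesis.

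Of 11 genes that supply or share pyruvate, edgeR called 4 lower and none higher and did not call 7, with a median of -0.71. *Mpc1* and *Mpc2*, the subunits of the mitochondrial pyruvate carrier, were 2.19-fold and 2.01-fold lower (adjusted p = 0.0374 and 0.0335). *Pcx*, the enzyme that makes oxaloacetate from pyruvate, had FPKM of 323, 637 and 291 on ND and 126, 195 and 75.0 on HFD, a log2 fold change of -1.64 ± 0.44 (adjusted p = 0.0456). *Gpt2*, a mitochondrial alanine transaminase, fell by 1.40 (adjusted p = 0.0165). The ND2 library was highest for all 4, and HFD3 was lowest. The list also held a pair of genes with positive values, named after these were seen. *Slc16a3*, a lactate exporter of glycolytic cells, had 1.27 ± 0.45 (adjusted p = 0.0953), and it was called higher by DESeq2 (0.0323), in the fit with a replicate block (0.0464) and without HFD2 (0.0211). The pyruvate kinase gene *Pkm* had 0.93 ± 0.40 (0.149), and it was called higher without HFD2 (0.0391). Both were highest in HFD3.

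Of 6 genes of acetyl-CoA use and export, 2 were called lower and 1 higher. *Slc25a1*, the mitochondrial citrate carrier, had FPKM of 239, 489 and 199.7 on ND and 80.0, 102 and 85.7 on HFD, a log2 fold change of -1.77 ± 0.34 (adjusted p = 0.0188). Citrate synthase, *Cs*, fell by 0.86 (adjusted p = 0.0399). *Acss1*, which makes acetyl-CoA from acetate inside mitochondria, rose by 0.96 (adjusted p = 0.0120), with FPKM between 3.57 and 4.28 on ND and between 6.46 and 8.86 on HFD. The list median was -1.32.

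The sister complexes that oxidise other 2-oxo acids had 3 of 8 genes called lower and none higher, with a median of -0.77. *Dbt*, the E2 subunit of the branched-chain complex, fell by 0.99 (adjusted p = 0.0497). Its kinase *Bckdk* fell by 0.66 (0.0127) and its phosphatase *Ppm1k* by 0.81 (0.0263). The kinase of the branched-chain complex was lower on HFD in all 3 libraries, while *Pdk4* was higher.

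**Figure D5:**
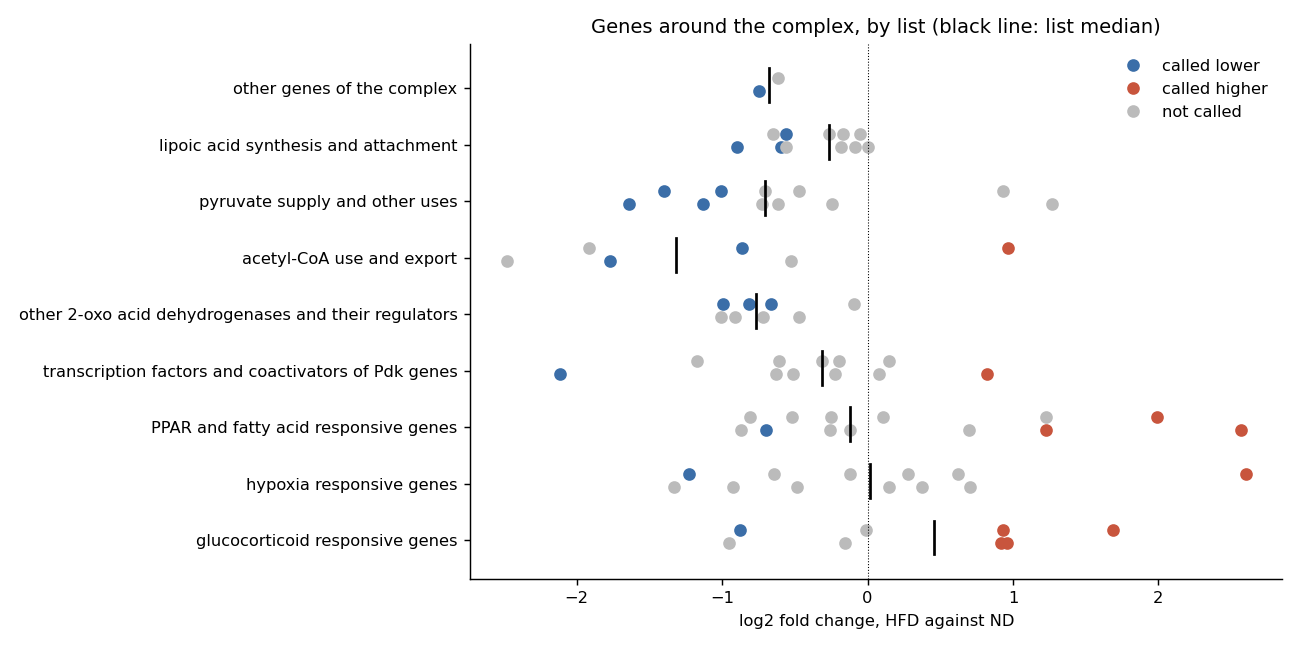
Log2 fold change of HFD against ND (x axis) for the tested genes of 9 lists around the complex, with 1 point per gene and a black line at each list median. Blue points were called lower, red points higher and grey points neither. The 5 lists at the top had medians from -0.27 to -1.32, and the glucocorticoid list had a median of 0.46.

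Lists for the known inducers of *Pdk4* held genes called in both directions. Over all genes tested, 6.04% were called lower and 9.85% higher, and no list was tested as a set. Among 11 transcription factors and coactivators of the kinase genes, *Foxo3* was called higher by edgeR (0.82 ± 0.18, adjusted p = 0.0248). *Ppargc1a*, the coactivator PGC-1 alpha, was called lower (-2.12 ± 0.34, adjusted p = 0.0114), and 9 were not called. With 1 gene each way, this list was near the shares over all genes. Of 13 tested genes known to respond to PPAR or fatty acids, 3 were called higher and 1 lower. *Cpt1a*, which admits fatty acids to mitochondria, rose by 1.23 (adjusted p = 0.00835), the uncoupling protein gene *Ucp2* by 1.99 (0.00962) and the lipid droplet gene *Plin2* by 2.57 (0.0145). *Acot2*, a mitochondrial acyl-CoA thioesterase, fell by 0.70 (0.0395), and the list median was -0.12. *Cpt1a*, *Ucp2* and *Plin2* were all highest in HFD3, the library with the highest macrophage sum, where *Pdk4* was lowest of the HFD libraries. The cells these transcripts came from were not tested.

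Of 8 genes known to respond to glucocorticoids, 4 were called higher and 1 lower. *Cdkn1a*, a cell cycle inhibitor, rose by 1.69 (adjusted p = 0.00402), *Sgk1*, a kinase, by 0.93 (0.00938) and *Tsc22d3*, which codes for GILZ, by 0.92 (0.0142), while *Fkbp5*, a chaperone of the glucocorticoid receptor, fell by 0.88 (0.0387). Of 12 hypoxia responsive genes, 1 was called higher, 1 lower and 10 were not called, with a median of 0.02. That is near the shares over all genes tested (9.85% higher and 6.04% lower). *Car9*, a carbonic anhydrase, rose by 2.60 (0.0176) from FPKM between 0.167 and 0.305 on ND to between 0.736 and 2.53 on HFD, and the hexokinase gene *Hk2* fell by 1.23 (0.0463). Of the 26 genes of the 9 pathway lists that are named here as called, 3 were called without HFD1, 5 without ND1, 8 without ND2, 15 without ND3, 17 without HFD3 and 25 without HFD2. All 26 kept their direction in each of these fits, and *Cpt1a* and *Cdkn1a* were called in all 6.

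The 5 protein-coding genes with the profile most like that of *Pdk4* over the 6 libraries, by Pearson's r of log2 CPM among 12516 other genes, were *Tnxb*, *Spag9*, *Cyp4v3*, *Vgll3* and *Srbd1*. Their r lay between 0.990 and 0.996 as a description, since the 6 libraries fall into 2 diets. *Cyp4v3* (1.41, adjusted p = 0.00652) and *Vgll3* (2.26, 0.00743) were called higher by edgeR. *Tnxb* (0.42, 0.0731), *Spag9* (0.30, 0.132) and *Srbd1* (0.41, 0.0828) were not, and changed far less than *Pdk4*.

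Counts of calls depended on the tool. DESeq2 called 6 of the 10 genes lower, adding *Dlat* (adjusted p = 0.0355), *Pdk1* (0.0285) and *Pdp2* (0.0103) to those called by edgeR, and 1 higher, where it called 8.42% of all genes lower and 10.7% higher. In simulated data, 200 of 15751 genes were changed and the spread came from edgeR's own estimates. There 48 of the 184 calls of DESeq2 were false, against 5 of the 121 calls of edgeR. More genes were called in the real data, so these shares of false calls do not carry over to the calls above. Of the genes, 5 shared no exact sequence of that length: *Dlat*, *Pdk1*, *Pdk2*, *Pdk3* and *Pdp1* have no 50-base window in common with the annotated transcript of another gene. Near matches, sequence outside annotated transcripts and the assignment of reads were not checked. In *Pdha1* 12.9% of windows were shared, nearly all with *Map3k15* on the other strand, in *Pdhb* 11.4%, and in *Pdhx*, *Pdk4* and *Pdp2* between 0.0709% and 1.40%.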

How the data were processed

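Total RNA of epididymal fat had been sequenced in 3 ND and 3 HFD samples, grouped by their labels. The authors deposited raw counts and FPKM values per Ensembl gene. The paper's methods name TopHat and Cufflinks on GRCm38. The submitters' processing notes instead list CASAVA 1.8, fastp, HISAT2 2.0.5, featureCounts 1.5.0-p3, DESeq2 1.20.0 and the human build GRCh38, although the identifiers are those of mouse genes, and which was used was not settled. Whether counting used strand is not given in the sources used here. The deposited FPKM equalled the count over a gene length and a library factor (11492 genes with over 50 counts), and that factor was up to 8.87% off the count total.

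Gene names came from GENCODE release M21, which held 54409 of the 54532 identifiers. The main test was edgeR 4.0.16 (R 4.3.3; TMM, filterByExpr, glmQLFit with robust=TRUE, diet only, Benjamini-Hochberg over 15751 genes). Alternatives were DESeq2 1.42.0, limma 3.58.1 (voom, or log2(FPKM + 1) and log2(FPKM + 0.1), keeping genes that reached 0.5 FPKM in 3 libraries), other scalings and filters, a replicate block, and each library left out. In simulated data of this size edgeR recovered 116 of 200 changed genes with 5 false calls, and DESeq2 recovered 136 with 48 false calls. A count of 3 equals 0.150 to 0.181 CPM, for counting error only.

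The members, lists and tests were chosen with earlier results of these data known. The genes named are the 10 members and, in each pathway list, those called or the 4 of smallest p where more were called, apart from those said to be chosen otherwise. Same-numbered libraries are different mice.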

Additional observations from a re-analysis of the deposited data

How the results depend on the processing

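The 10 genes kept the sign of their log2 fold change under all 17 alternatives, and 146 of the 170 values also kept their side of the threshold. The number called lower was 3, and it was 6 with DESeq2, 0 with log2(FPKM + 1) and no filter, and between 0 (without ND replicate 1, without HFD replicate 1) and 4 (without HFD replicate 2) with 1 library left out. The number called higher was 1, and between 0 and 1 with 1 library left out, the 0 being without ND replicate 1. Over all genes, 952 were called lower, with 1596 in DESeq2 and 255 with log2(FPKM + 1) and no filter, and between 94 (without HFD replicate 1) and 1572 (without HFD replicate 2) with 1 library left out. The 1552 called higher became 394 with log2(FPKM + 1) and no filter, and between 337 (without ND replicate 1) and 2368 (without HFD replicate 2). The cause was not tested. A fit with a replicate block called 4 of the 10 genes lower (*Dlat* at an adjusted p of 0.0478 was added) and 1 higher, and 703 and 1183 of all genes. Deviations of same-numbered libraries had correlations between -0.0858 and -0.00532. These values show no pairing over the genes as a whole, and they cannot exclude a shared batch or order of handling. No scaling moved the median log2 fold change of all genes by over 0.1. *Pdp2* was called with robust=FALSE (0.0495), and *Pdhx* was not with limma-voom (0.0529) or no filter (0.0523). A p over the threshold does not show that a gene did not differ.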
